A study of Mus musculus with 13 samples.

Results

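The genes described here are all gene entries of the deposited count table whose symbol begins with Kcn, together with Abcc8 and Abcc9, which encode the sulfonylurea receptors of the ATP-sensitive channels. There were 97 of them among 36172 gene entries. The libraries came from cardiac muscle of C57BL/6JO1aHsd mice aged 8 to 10 weeks at the start of treatment: 3 mice had sham surgery without treatment, 5 had myocardial infarction (MI) by permanent ligation of the LAD, the left anterior descending coronary artery, and a control antibody labelled mouse anti IgG (IgG), and 5 had the same operation and FG-3149, a monoclonal antibody labelled as directed against connective tissue growth factor (CTGF). Both antibodies were labelled 10 mg/kg, and all groups carried the time label 1W+6W, whose meaning is not given in the sources used here. RNA came from left ventricle outside the ischaemic area, so the infarct itself was not sampled. Sham mice received no antibody, and an effect of an antibody as such cannot be told apart from MI in the comparisons with sham.

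Potassium channels set the resting potential and end each action potential of heart muscle by letting potassium leave the cell. A channel is built from pore-forming subunits, and its current depends on which partner subunits join them. Inward rectifiers hold the resting potential, fast and slow voltage-gated channels shape repolarisation, ATP-sensitive channels open when the cell runs short of energy, and tandem-pore (K2P) channels carry background current. Lower levels of several repolarising channels are well known in diseased ventricle.

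The libraries held 12025880 to 14999813 estimated counts each after sham surgery. With IgG they held 13084735 to 17567238, and with FG-3149 between 10954920 and 12794823, so every FG-3149 library was smaller than every IgG library. Coverage along transcripts also differed with the groups. Over 5450 genes, the median share of a gene's counts that lay in its 5'-most exon was 1.74% to 2.13% in sham, 2.09% to 3.13% under IgG and 4.27% to 4.85% under FG-3149, and the share was higher with FG-3149 than with IgG in 94.3% of these genes. The 8 cardiomyocyte markers, among them Tnnt2, Myh6 and Ttn, summed to 76670 to 84800 CPM (counts scaled to library size with TMM factors) in sham, 66890 to 75150 under IgG and 70980 to 77850 under FG-3149, so the markers that define the labelled tissue were abundant in every library. Of 5 atrial and conduction markers, Myl7 and Sln stood at or near 0 in all libraries except IgG replicates 4 and 5, where Myl7 was 8.37 and 13.7 CPM and Sln 0.530 and 2.31. Myl4 was 21.5 and 30.7 CPM in the same pair and at most 3.40 elsewhere, so these IgG libraries stood apart, and calls that change without both are given below. In such bulk samples fewer cells of a type and less RNA per cell cannot be told apart.

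Of the 97 genes, 47 had enough reads to be tested and 50 did not. The untested genes included 10 that were listed at 0 in all 13 libraries and 40 with a few reads, whose mean count reached at most 6.96. Kcnip2, the accessory subunit of the fast transient outward current, was among those listed at 0, and no level is read from that. All 4 genes of the classical inward rectifiers and all 4 of the ATP-sensitive channels were tested, 12 of 17 voltage-gated pore genes of the Kv1 to Kv4 families, 4 of 14 K2P genes, 2 of 10 silent voltage-gated subunits, and 1 of 8 genes of the EAG and ERG families. Exons of 7 tested genes overlap a gene on the opposite strand, and the strand setting of the counting is not given in the sources used here, so values of Abcc9, Kcnd3, Kcnk3, Kcnn2, Kcnq1, Kcnq1ot1 and Kcnt2 may hold reads of a partner.

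After MI with IgG, 7 of the 47 tested genes were higher than in sham and 12 were lower, at an adjusted p under 0.05 by edgeR's quasi-likelihood test with Benjamini-Hochberg adjustment over all 13434 genes tested. Those 19 are 40.4% of the tested channel genes, beside 33.7% of all tested genes (17.8% higher and 15.9% lower). With FG-3149 against sham, 8 were higher and 12 lower, which is 42.6% beside 29.5% of all genes (15.6% higher and 13.9% lower). Both comparisons use the same 3 sham libraries. With FG-3149 against IgG, 2 genes were higher and 0 lower, or 4.26% beside 1.07% of all genes (0.916% higher and 0.156% lower). That pair, Kcnk3 and Kcng2, is described last. At an unadjusted p under 0.05, 5 members differed between the antibodies, beside 13.8% of all genes. The median log2 fold change of the tested channel genes was -0.10 for IgG against sham, 0.02 for FG-3149 against IgG and -0.06 for FG-3149 against sham, beside -0.001, -0.01 and -0.001 for all genes. Without any overlap between libraries, 8 channel genes were higher and 12 lower with IgG than in sham, where 18.2% and 17.7% of all genes were. With FG-3149 against sham these counts were 8 and 13, beside 16.6% and 15.6%.

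**Figure D1:**
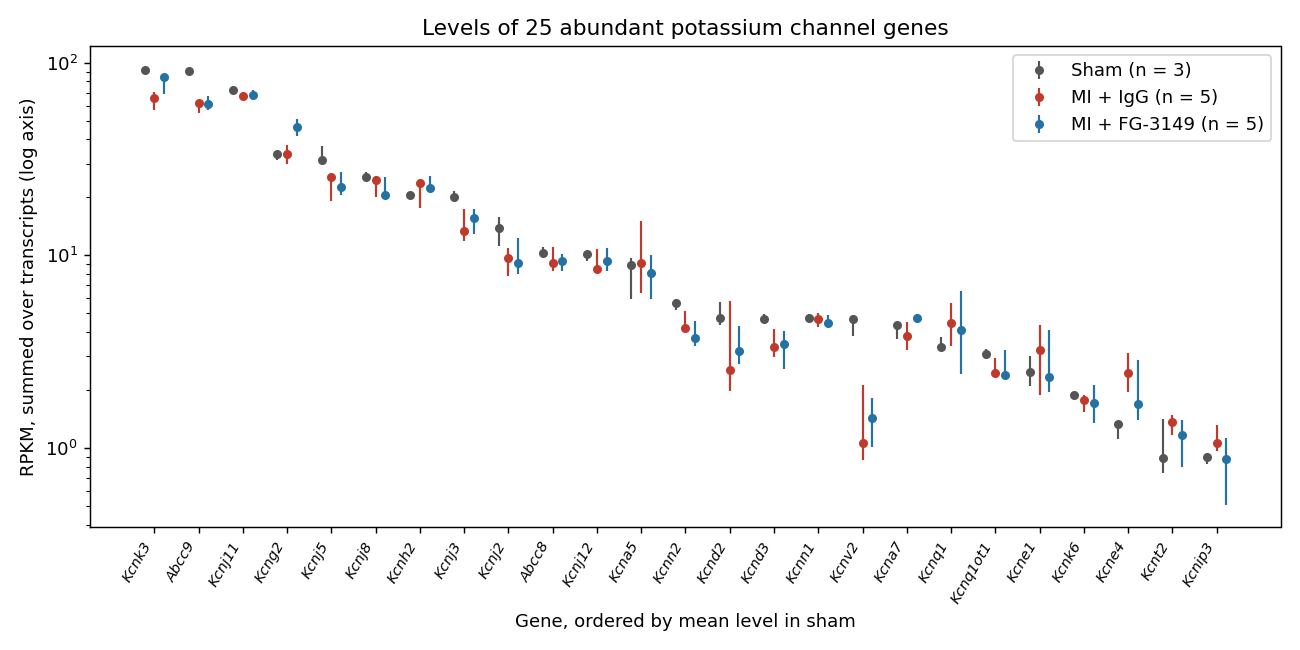
RPKM of 25 of the more abundant potassium channel genes, summed over transcripts, on a log axis. Points are group medians and bars run from the lowest to the highest library. Kcnk3 and Abcc9 lead in sham, and Kcnv2 shows the widest gap between sham and both infarcted groups.

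On the length-scaled RPKM values, which allow genes to be compared, Kcnk3 (mean 91.8 in sham) and Abcc9 (91.5) were the most abundant, and their order was not separable. Kcnj11 followed at 71.8, then Kcng2 at 33.1, Kcnj5 at 32.96, Kcnj8 at 25.8, Kcnh2 at 20.9 and Kcnj3 at 20.3. Kcng2 and Kcnj5 likewise did not differ beyond their spread in sham. Summed over the 95 members in that table, RPKM ran from 484.6 to 509 in sham, from 392.7 to 425.3 with IgG and from 413.7 to 459.6 with FG-3149. The summed level of sham lay above that of every infarcted heart, and Kcnk3, Abcc9 and Kcnj11 together held 51.1% to 52.3% of it in sham, 45.7% to 49.1% under IgG and 46.7% to 49.2% under FG-3149.

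Among the ATP-sensitive channels, Abcc9, which encodes the receptor subunit SUR2 (Entrez gene 20928, mm10 chromosome 6, 142587862 to 142702274, minus strand), fell 1.52-fold after MI with IgG. It stood at 704, 688 and 677 CPM in sham, at 460, 451, 478, 459 and 415 CPM with IgG, and at 454, 454, 443, 465 and 516 CPM with FG-3149. Every sham library was above every infarcted one, and both infarcted groups overlapped. The log2 fold change was -0.61 ± 0.06 (SE) with IgG against sham (adjusted p = 5.34e-07) and -0.56 ± 0.06 with FG-3149 against sham (adjusted p = 3.31e-06, edgeR).

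The pore genes that pair with sulfonylurea receptors differed less from sham in value. Kcnj11, the Kir6.2 pore, ran from 211 to 227 CPM in sham, from 201 to 207 with IgG and from 198 to 223 with FG-3149, with log2 fold changes of -0.10 ± 0.05 (adjusted p = 0.155) and -0.07 ± 0.05 (adjusted p = 0.32, edgeR) against sham. Kcnj8, the Kir6.1 pore found mainly in vascular cells, ran from 54.0 to 59.1 CPM in sham and from 43.5 to 56.7 with FG-3149, and fell by 0.27 ± 0.08 on the log2 scale (adjusted p = 0.0234). Leaving out 1 library ended the Kcnj8 call for sham replicate 1 (adjusted p = 0.103) or 2 (0.0701) and for FG-3149 replicate 1 (0.0502) or 2 (0.0566), and counting the 3'-most exon alone gave -0.15 (adjusted p = 0.319). Of 6 endothelial markers, 2 fell with IgG and 4 with FG-3149 against sham. The sum of all 6 was 1173 to 1293 CPM in sham, 897 to 1188 under IgG and 967 to 1064 under FG-3149. Their part in the Kcnj8 values was not tested. Abcc8, the receptor SUR1, was not called in either comparison with sham (log2 fold changes of -0.16 and -0.15, adjusted p = 0.136 and 0.181). Abcc8 with IgG passed without IgG replicate 1 (-0.22, adjusted p = 0.0283). With the trend over GC content removed, Abcc8 and Kcnj11 also passed the threshold against sham, with log2 fold changes of -0.23 and -0.17 with IgG and -0.24 and -0.16 with FG-3149.

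Upstream sequence is given for 3 of the inward rectifier and ATP-sensitive channel genes that were lower with IgG than in sham. Kcnj3 was lower as well and is not shown, so the 3 are examples and not a complete set. The lines show the 250 bases before the RefSeq start (GRCm38.p6, gene strand, 5' to 3'), with capitals for a CACGTG E-box, the site bound by the clock factor encoded by Arntl and its partner. They lie at chromosome 6, 142702275 to 142702524 (minus strand) for Abcc9, chromosome 9, 32344345 to 32344594 (minus strand) for Kcnj5, and chromosome 11, 111065914 to 111066163 (plus strand) for Kcnj2.
Abcc9: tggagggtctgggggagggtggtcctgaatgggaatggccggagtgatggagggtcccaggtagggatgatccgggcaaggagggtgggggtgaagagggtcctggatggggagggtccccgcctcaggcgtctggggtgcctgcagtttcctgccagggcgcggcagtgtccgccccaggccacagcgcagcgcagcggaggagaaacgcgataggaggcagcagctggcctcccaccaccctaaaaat
Kcnj5: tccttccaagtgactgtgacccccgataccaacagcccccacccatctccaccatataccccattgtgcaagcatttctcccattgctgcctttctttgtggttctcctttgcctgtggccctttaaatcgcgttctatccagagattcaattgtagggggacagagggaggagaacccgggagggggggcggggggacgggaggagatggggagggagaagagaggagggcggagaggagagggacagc
Kcnj2: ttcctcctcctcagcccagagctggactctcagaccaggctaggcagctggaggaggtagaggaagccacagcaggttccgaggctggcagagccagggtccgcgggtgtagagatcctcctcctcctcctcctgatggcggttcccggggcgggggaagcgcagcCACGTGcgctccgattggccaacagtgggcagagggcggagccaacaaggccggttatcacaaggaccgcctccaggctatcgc
CACGTG reads the same on both strands, and of these 3 sequences only that of Kcnj2 holds it. Of 32851 promoter windows of 250 bases in the RefSeq table, 1978 (6.02%) hold CACGTG. Among 48 windows of 32 tested channel genes, 4 hold it, those of Kcnab1, Kcne4 and Kcnj2. The D-box motifs TTATGTAA and TTACGTAA, searched on both strands, were found in 0.932% of all windows and in 0 of the 48. A match is a description of the letters, and binding was not measured.

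The classical inward rectifier current runs through Kir2 channels. Kcnj2, the main Kir2.1 pore, stood at 85.2, 62.1 and 75.8 CPM in sham, at 43.5, 42.1, 53.2, 52.7 and 59.9 with IgG, and at 43.8, 48.7, 65.7, 50.6 and 68.2 with FG-3149. All IgG libraries lay below all sham libraries, the nearest by a small margin, and 2 FG-3149 libraries reached into the sham range. The log2 fold change was -0.56 ± 0.16 with IgG (adjusted p = 0.0187) and -0.42 ± 0.16 with FG-3149 (adjusted p = 0.072, edgeR), each against sham. The first call was lost without sham replicate 1 (adjusted p = 0.0895) or 3 (0.0571), and the comparison of FG-3149 with sham passed without sham replicate 2 (0.0481) or FG-3149 replicate 5 (0.0323), with the replicate number as a block (0.00371), in DESeq2 (0.0242) and on log2 RPKM with either pseudocount (0.0383 and 0.0391).

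Kcnj14, the Kir2.4 pore, went the other way at a low level. It stood at 1.75, 2.17 and 1.49 CPM in sham, at 3.27, 4.45, 5.10, 5.36 and 3.23 with IgG, and at 4.02, 4.51, 3.46, 5.30 and 4.88 with FG-3149, so that every infarcted heart was above every sham heart. This was a log2 fold change of 1.25 ± 0.23 with IgG (adjusted p = 0.000384) and 1.28 ± 0.23 with FG-3149 (adjusted p = 0.000502, edgeR). Kcnj12, the Kir2.2 pore, ran from 41.4 to 46.1 CPM in sham, from 35.4 to 47.9 with IgG and from 37.3 to 49.0 with FG-3149, and was not called (adjusted p = 0.36 and 0.716). Kcnj4, the Kir2.3 pore, stayed at or below 1.03 CPM in all libraries and was not called.

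The acetylcholine-gated channel of the heart joins the products of Kcnj3 and Kcnj5, and both genes fell in both infarcted groups. Kcnj5 (Entrez gene 16521) stood at 165, 141 and 139 CPM in sham, at 115, 85.5, 99.5, 111 and 117 with IgG, and at 102, 110, 95.2, 104 and 124 with FG-3149. Kcnj3 (Entrez gene 16519) stood at 33.5, 36.8 and 32.3 CPM in sham, at 28.8, 19.8, 21.3, 21.7 and 22.7 with IgG, and at 26.2, 25.1, 27.7, 22.1 and 29.8 with FG-3149. Sham and infarcted hearts did not overlap for either gene. Kcnj5 had log2 fold changes of -0.49 ± 0.10 with IgG (adjusted p = 0.00144) and -0.47 ± 0.10 with FG-3149 (adjusted p = 0.00279, edgeR). Those of Kcnj3 were -0.59 ± 0.11 (adjusted p = 0.000383) and -0.39 ± 0.11 (adjusted p = 0.0115), the latter lost without sham replicate 2 (-0.33, adjusted p = 0.0713). Both genes are known to be well expressed in atrium. Without IgG replicates 4 and 5, the pair with atrial markers, the log2 fold change with IgG was -0.57 for Kcnj5 (adjusted p = 0.0018) and -0.56 for Kcnj3 (adjusted p = 0.00387). Their relatives Kcnj6 and Kcnj9 had too few reads to test. Kcnj15, which encodes Kir4.2, rose from 3.05 to 3.65 CPM in sham to 5.07 to 10.7 with IgG (log2 fold change 1.06 ± 0.23, adjusted p = 0.00199). With FG-3149 it ran from 4.56 to 6.84 CPM (0.71 ± 0.24, adjusted p = 0.0349), a call lost without any 1 of the sham libraries (adjusted p from 0.0533 to 0.117), without FG-3149 replicate 1 (0.0745) or 2 (0.0515), on log2(RPKM + 1) (0.079) and with counts thinned to the smallest library (0.0508).

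**Figure D2:**
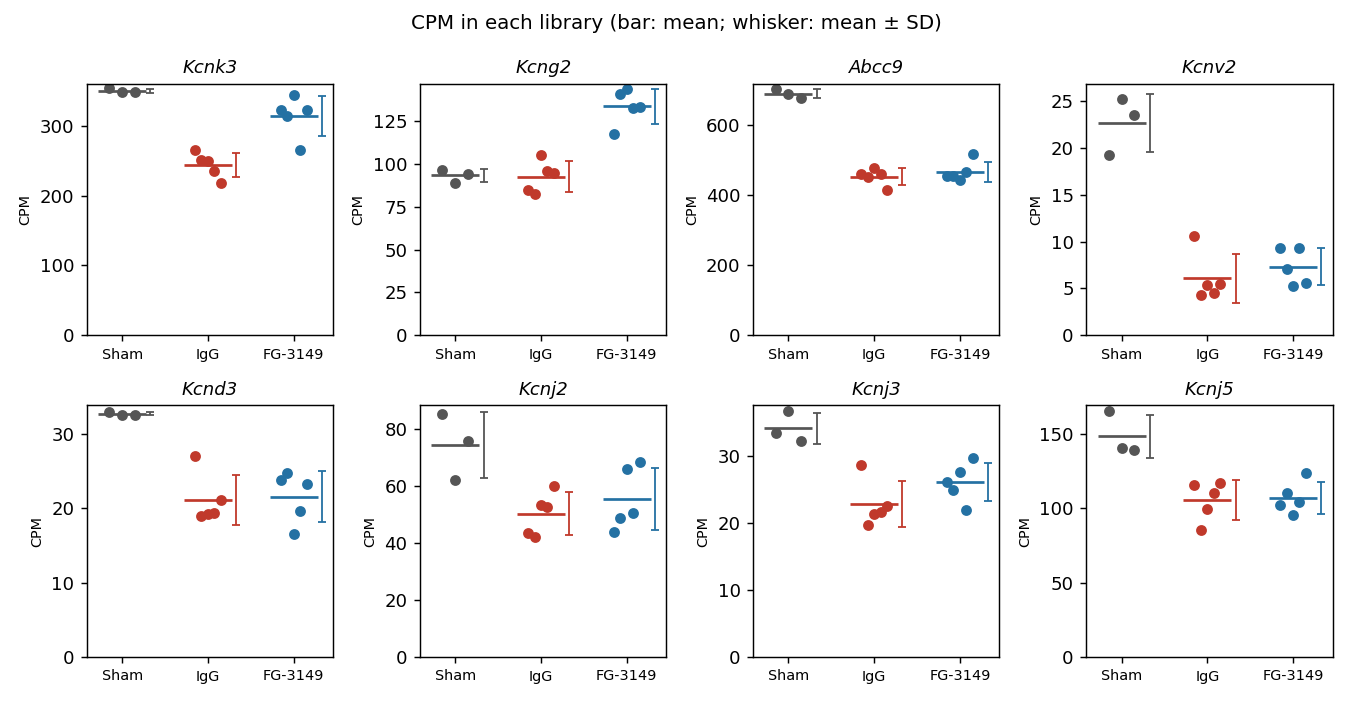
CPM in each library for 8 channel genes in 3 sham, 5 IgG and 5 FG-3149 libraries. Points are libraries, the bar is the group mean and the whisker is the mean ± SD. Abcc9, Kcnd3, Kcnj3, Kcnj5 and Kcnv2 are lower than sham in every infarcted heart, while Kcng2 is higher with FG-3149 than in every other library.

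The fast transient outward current of mouse ventricle is carried by Kv4 pores. Kcnd3, the Kv4.3 pore, stood at 33.1, 32.7 and 32.7 CPM in sham, at 27.1, 18.9, 19.2, 19.4 and 21.1 with IgG, and at 23.9, 24.8, 16.6, 19.6 and 23.3 with FG-3149. All infarcted hearts lay below sham, and the sham libraries were almost equal. The log2 fold change was -0.64 ± 0.12 with IgG (adjusted p = 0.000728) and -0.60 ± 0.12 with FG-3149 (adjusted p = 0.00189, edgeR). Kcnd2, the Kv4.2 pore, stood at 26.0, 20.2 and 21.6 CPM in sham, at 26.1, 8.84, 13.9, 11.3 and 10.8 with IgG, and at 15.9, 12.2, 14.4, 19.8 and 14.7 with FG-3149. IgG replicate 1 was as high as sham, and the other 4 IgG libraries were below it. With all libraries Kcnd2 was not called (log2 fold change -0.68 ± 0.30 with IgG, adjusted p = 0.103, and -0.56 ± 0.30 with FG-3149, adjusted p = 0.195). Without IgG replicate 1 the values were -1.01 (adjusted p = 0.000109) and -0.55 (adjusted p = 0.0104). Kcnd2 also passed on log2 RPKM in the comparison of IgG with sham (adjusted p = 0.0468 and 0.0454) and in the comparison of FG-3149 with sham fitted on those groups alone (0.00483). IgG replicate 1 was the highest of its group for Kcnd3, Kcnj3 and Kcnv2 as well.

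Kcna5, the Kv1.5 pore, ran from 17.7 to 29.4 CPM in sham, from 19.4 to 44.4 with IgG and from 18.2 to 30.4 with FG-3149 and was not called (adjusted p = 0.512 and 0.949). Kcna4, the Kv1.4 pore whose current is slow to recover, was not called either (log2 fold changes of 0.27 and 0.30, adjusted p = 0.263 and 0.22), except with FG-3149 on the 3'-most exon alone (0.50, adjusted p = 0.0412).

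Kcna1, Kcna2 and Kcna6, Kv1 pores best known from neurons, had low levels and were each called lower in at least 1 comparison with sham. Kcna2 stood at 3.82, 3.73 and 5.39 CPM in sham, at 1.16, 1.01, 0.746, 3.54 and 2.15 with IgG, and at 2.05, 1.99, 1.73, 0.558 and 0.732 with FG-3149. Sham was above all infarcted hearts, narrowly so for IgG replicate 4. Kcna2 had log2 fold changes of -1.32 ± 0.43 with IgG (adjusted p = 0.0294) and -1.59 ± 0.46 with FG-3149 (adjusted p = 0.0179, edgeR). Kcna1 ran from 1.36 to 2.703 CPM in sham, 0.172 to 1.54 under IgG and 0.182 to 0.764 under FG-3149, with log2 fold changes of -1.38 ± 0.51 (adjusted p = 0.0477) and -2.29 ± 0.59 (adjusted p = 0.00835). Kcna6 ran from 0.677 to 1.16 CPM in sham and from 0 to 0.458 under FG-3149 (-2.29 ± 0.61, adjusted p = 0.00894), and it did not pass with IgG (adjusted p = 0.131). Kcna6 reached the level needed for testing in 2 sham libraries, 1 IgG library and 0 FG-3149 libraries, so it entered the test mainly through sham, where it was high. Without any 1 of sham replicates 1 and 3, IgG replicates 1, 2 and 3 and FG-3149 replicates 1, 3, 4 and 5, the Kcna1 call with IgG was lost (adjusted p from 0.0512 to 0.192). That call was also lost in DESeq2 (0.0626), without the filter on low counts (0.0652), with only the 2 groups compared (0.0933) and on log2(RPKM + 1) (0.0562), so in 13 of 24 alternatives. The Kcna2 call with IgG was lost without any 1 of the sham libraries or IgG replicates 1, 2 and 3 (adjusted p from 0.053 to 0.115). The call of Kcna2 with FG-3149 was lost without sham replicate 3 (adjusted p = 0.0724), and with the replicate block both Kcna2 calls were lost (0.0828 and 0.0612). IgG replicates 4 and 5, the pair with atrial markers, held the highest IgG values of both genes. Kcna1 was 1.47 and 1.54 CPM there and at most 0.581 in the other IgG libraries, and Kcna2 was 3.54 and 2.15, with at most 1.16 in the others. Of 7 markers of Schwann cells and neurons, 4 could be tested. Among these, Dbh fell with IgG against sham (log2 fold change -0.78) while S100b and Tubb3 rose (1.36 and 3.03). The list summed to 10.7 to 14.9 CPM in sham, 10.7 to 16.2 under IgG and 7.82 to 13.2 under FG-3149, and its part in the Kv1 values was not tested.

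Silent subunits form no channel alone and change the behaviour of other voltage-gated pores when they join them. Kcnv2, which encodes Kv8.2 (Entrez gene 240595, chromosome 19, 27322619 to 27337179, plus strand), had the most negative log2 fold change in both comparisons with sham among called channel genes with a sham mean above 10 CPM. It stood at 19.2, 25.3 and 23.5 CPM in sham, at 10.6, 4.34, 5.39, 4.54 and 5.46 with IgG, and at 9.32, 7.10, 5.28, 9.30 and 5.53 with FG-3149. The lowest sham library was well above the highest infarcted one, IgG replicate 1. Kcnv2 had log2 fold changes of -1.92 ± 0.26 with IgG (adjusted p = 0.000112) and -1.64 ± 0.26 with FG-3149 (adjusted p = 0.000604, edgeR), and the direction and call held in all 24 alternatives.

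**Figure D3:**
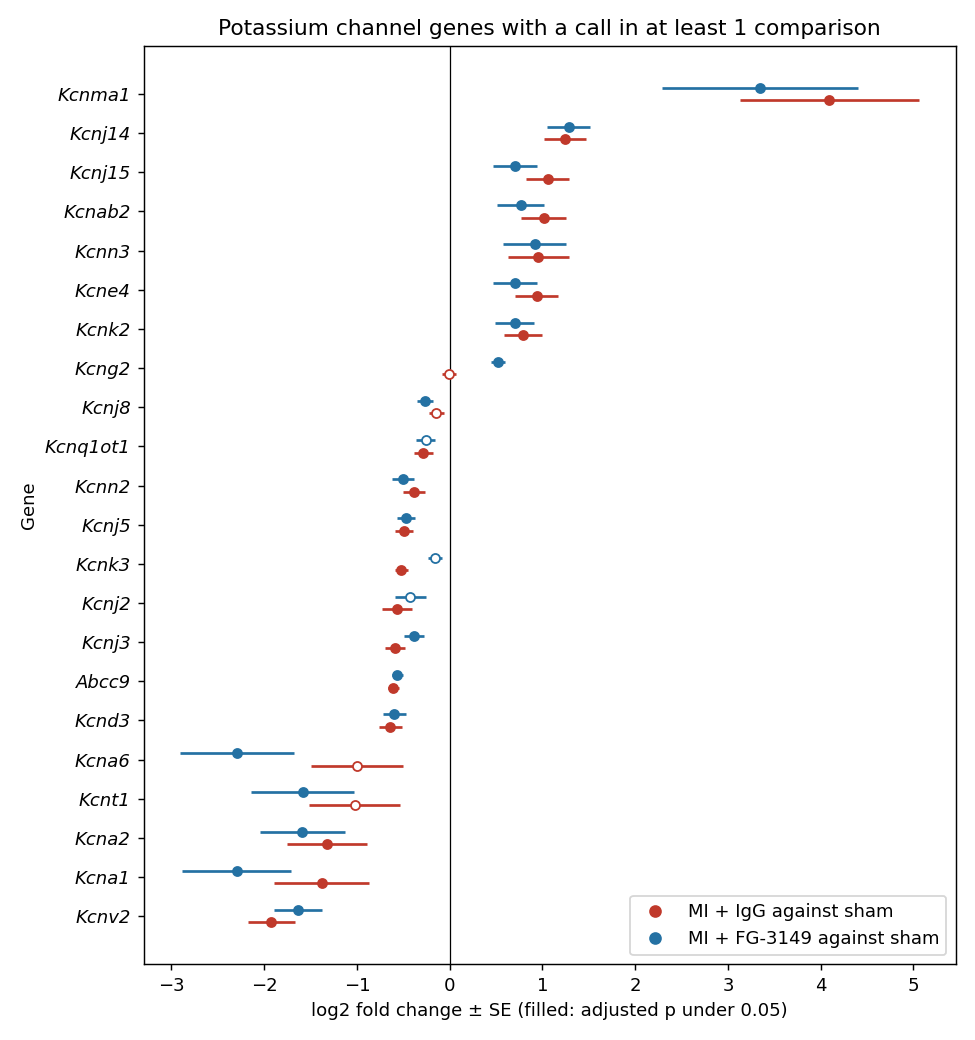
Log2 fold change against sham, with its SE, for the channel genes described here that were called in at least 1 comparison. Red is MI with IgG and blue is MI with FG-3149, both against the same 3 sham libraries, and filled symbols passed the test. Kcng2 is filled for FG-3149 and open for IgG, and Kcnk3 is filled for IgG and open for FG-3149.

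Among the other delayed rectifier genes, Kcnq1, the pore of the slow current, and Kcnh2, the ERG pore of the rapid current, were not called. Kcnh2 ran from 87.1 to 89.0 CPM in sham, from 73.3 to 106 with IgG and from 88.0 to 113 with FG-3149 (log2 fold changes of 0.09 and 0.17, adjusted p = 0.555 and 0.24). Kcnq1 ran from 54.9 to 59.8 CPM in sham, 52.2 to 66.6 under IgG and 47.8 to 75.8 under FG-3149. Kcnq1ot1, a noncoding RNA transcribed against Kcnq1, was lower with IgG (-0.28 ± 0.10, adjusted p = 0.0429), a call lost in 15 alternatives, among them leaving out any 1 of the sham libraries (adjusted p from 0.0634 to 0.157), IgG replicates 1 to 4 (0.0564 to 0.0872) or FG-3149 replicate 2 or 3 (0.0512 and 0.059). With FG-3149 it was called only without FG-3149 replicate 1 (-0.35, adjusted p = 0.00214), IgG replicate 5 (-0.26, adjusted p = 0.0398) or IgG replicates 4 and 5 together (-0.25, adjusted p = 0.0445). Kcne1, the KCNQ1 partner minK, ran from 5.88 to 13.8 CPM over all libraries and was not called (adjusted p = 0.388 and 0.849). Kcne4, a subunit that inhibits several Kv channels, rose from 2.78 to 3.40 CPM in sham to 4.82 to 7.55 with IgG (0.94 ± 0.23, adjusted p = 0.00442). With FG-3149, Kcne4 ran from 3.55 to 6.92 CPM (0.70 ± 0.24, adjusted p = 0.0331), a call lost without any 1 of the sham libraries (adjusted p from 0.0606 to 0.131), without FG-3149 replicate 1 (0.0766) or 2 (0.0803) and on log2 RPKM.

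Other genes of low level rose. Kcnab2, a cytoplasmic Kv beta subunit, stood at 1.75, 1.63 and 1.33 CPM in sham, at 2.40, 3.21, 3.73, 3.01 and 3.53 with IgG, and at 2.65, 1.76, 3.46, 2.14 and 3.42 with FG-3149. Sham was below all infarcted hearts, narrowly so for FG-3149 replicate 2. Kcnab2 had a log2 fold change of 1.01 ± 0.25 with IgG (adjusted p = 0.00375) and 0.77 ± 0.25 with FG-3149 (adjusted p = 0.0298, edgeR). The latter was lost without any 1 of the sham libraries (adjusted p from 0.0572 to 0.107), without FG-3149 replicate 3 (0.065) or 5 (0.0714), with the replicate block (0.0609) and with the GC trend removed (0.0608). Kcnk2, the stretch-sensitive K2P channel TREK-1, rose from 2.30 to 3.58 CPM in sham to 4.15 to 6.19 with IgG (0.79 ± 0.20, adjusted p = 0.00577) and 3.44 to 6.28 with FG-3149 (0.70 ± 0.21, adjusted p = 0.0171). Without sham replicate 2 neither Kcnk2 call held (adjusted p = 0.0501 and 0.106), nor did the call with FG-3149 on the 3'-most exon alone (0.098).

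Calcium-activated channels split by gene. Kcnma1, the BK pore of smooth muscle, had 4 counts over all sham libraries, 151 with IgG and 66 with FG-3149. Its CPM was 0.159, 0 and 0.166 in sham, 1.60, 3.77, 0.803, 1.77 and 1.38 with IgG, and 2.48, 1.15, 0.0910, 0.930 and 0.895 with FG-3149, where replicate 3 lay within the sham range. With counts pooled over each group and scaled to library size with TMM factors, the rate with IgG was 18.8 times that of sham (95% interval 7.21 to 70.1). With FG-3149 it was 11.1 times that of sham (4.12 to 41.8). Both intervals hold counting error only and leave out the spread between hearts. The fitted test passed in both comparisons (adjusted p = 0.00495 and 0.0292, edgeR), the second lost without any 1 of the sham libraries (adjusted p from 0.0618 to 0.108) and on log2 RPKM (0.17 and 0.0512), and without IgG replicates 4 and 5 together (0.052). Kcnma1 entered the test through the infarcted groups, since its sham counts alone are too low. Of 8 markers of smooth muscle and pericytes, 4 rose with IgG and 1 with FG-3149 against sham. Only Des, which heart muscle also expresses at a high level, was called in both, and it ran from 1376 to 1606 CPM in sham, 1891 to 2372 under IgG and 2171 to 2733 under FG-3149. The other 7 markers summed to 568 to 592 CPM in sham, 471 to 631 under IgG and 504 to 580 under FG-3149, overlapping between groups. Among them Cnn1 (1.14), Tagln (0.54) and Cspg4 (0.37) rose with IgG on the log2 scale. Their part in the Kcnma1 values was not tested. Kcnmb1, the BK beta subunit of smooth muscle, was not called with all libraries (log2 fold changes of -0.27 and -0.47 against sham, adjusted p = 0.366 and 0.137), but was lower with FG-3149 without FG-3149 replicate 5 (-0.72, adjusted p = 0.014) and with the replicate block (-0.64, adjusted p = 0.0472).

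The small-conductance channel genes differed among themselves. Kcnn2 (SK2) fell from 11.3 to 12.4 CPM in sham to 8.11 to 10.4 with IgG (-0.38 ± 0.12, adjusted p = 0.0187) and 7.01 to 9.86 with FG-3149 (-0.50 ± 0.12, adjusted p = 0.00472). On the 3'-most exon alone neither Kcnn2 call held (-0.23 and -0.24, adjusted p = 0.292 and 0.305), and the call with IgG was lost without sham replicate 3 (0.0787) or IgG replicates 4 and 5 together (0.0549). Kcnn3 (SK3) rose from 0.556 to 1.66 CPM in sham to 1.59 to 2.77 with IgG (0.95 ± 0.33, adjusted p = 0.0327) and 1.12 to 2.83 with FG-3149 (0.92 ± 0.34, adjusted p = 0.0487). Without sham replicate 1, the library with the lowest Kcnn3 level, the values were 0.65 (adjusted p = 0.179) and 0.61 (adjusted p = 0.227), and the call with FG-3149 was lost in 14 of 24 alternatives. Without IgG replicate 2 or 5 the call with IgG was lost too (0.0579 and 0.0653), as it was without sham replicate 2 (0.0942) or without IgG replicates 4 and 5 together (0.0607). The Kcnn3 call with IgG was also lost on log2 RPKM with either pseudocount (0.0867 and 0.0511) and with counts thinned to the smallest library (0.0709). Kcnn1 (SK1) ran from 17.0 to 20.4 CPM over all 13 libraries and was not called. Kcnt1, a sodium-activated pore, was lower with FG-3149 (-1.59 ± 0.55, adjusted p = 0.037), with 1.02 to 1.08 CPM in sham and 0.0813 to 0.837 with FG-3149. That call was lost without any 1 of the sham libraries (adjusted p from 0.0884 to 0.0897) or FG-3149 replicates 1, 3 or 5 (0.0668 to 0.0817), and on log2(RPKM + 1) (0.0541). Kcnt1 entered the test through sham, the group where it was high, since only 1 IgG and 1 FG-3149 library reached the level the filter asks for in 3. With IgG, Kcnt1 passed without IgG replicate 4 (-1.46, adjusted p = 0.0371) and with the replicate block (-1.38, adjusted p = 0.0304), though not with all libraries (-1.02, adjusted p = 0.117).

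**Figure D4:**
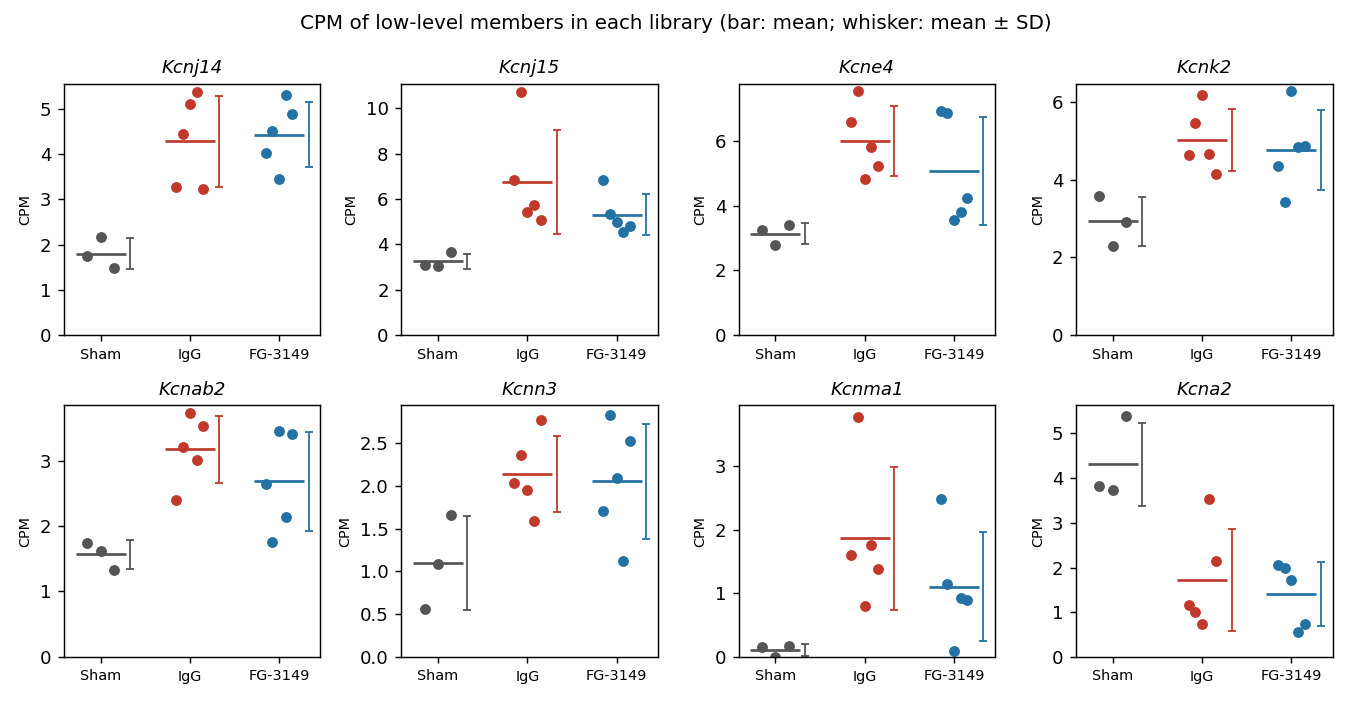
CPM in each library for 8 channel genes of low level, with the group mean (bar) and mean ± SD (whisker). Every infarcted heart is above every sham heart for Kcnj14, Kcnj15, Kcne4 and Kcnab2, and below for Kcna2, while Kcnma1 in 1 FG-3149 library lies at 0.0910 CPM, within the sham range.

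The comparison of FG-3149 with IgG asked which channel genes differed with the antibody against CTGF among infarcted hearts, and it called Kcnk3 and Kcng2. Kcnk3, the K2P background channel TASK-1 (Entrez gene 16527, chromosome 5, 30588170 to 30625270, plus strand), stood at 354, 349 and 348 CPM in sham, at 266, 251, 250, 235 and 219 with IgG, and at 323, 314, 344, 266 and 322 with FG-3149. All IgG libraries were below sham, and the FG-3149 libraries lay between, with replicate 4 just above the highest IgG library. Kcnk3 was lower with IgG than in sham (-0.52 ± 0.07, adjusted p = 2.38e-05) and higher with FG-3149 than with IgG (0.36 ± 0.06, 95% interval 0.23 to 0.49, adjusted p = 0.00555, edgeR). Against sham, the FG-3149 libraries gave -0.16 ± 0.07 (95% interval -0.31 to -0.009, adjusted p = 0.103), which did not pass the threshold and does not show that they were equal to sham. Without IgG replicates 4 and 5 together, the difference between the antibodies was 0.30 and narrowly missed the threshold (adjusted p = 0.0513), with 3 IgG libraries left, and IgG stayed below sham (-0.46, adjusted p = 0.00031). The comparison of FG-3149 with sham passed with the GC trend removed (-0.29, adjusted p = 0.0103) and without FG-3149 replicate 3 (-0.19, adjusted p = 0.0445).

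Kcng2, which encodes the silent subunit Kv6.2 (Entrez gene 240444, chromosome 18), stood at 96.5, 89.1 and 94.3 CPM in sham, at 84.7, 82.7, 105, 95.6 and 94.95 with IgG, and at 118, 141, 144, 133 and 134 with FG-3149. Sham and IgG overlapped, and every FG-3149 library was above all the others. The log2 fold change was 0.53 ± 0.07 with FG-3149 against IgG (95% interval 0.39 to 0.67, adjusted p = 0.00106) and 0.52 ± 0.08 against sham (adjusted p = 0.0001), while IgG against sham gave -0.01 ± 0.08 (adjusted p = 0.937, edgeR). Without IgG replicates 4 and 5 together the difference between the antibodies was 0.56 (adjusted p = 0.00357). The comparisons share libraries, so they are not independent of each other.

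Because the share of reads in 5' exons was higher in FG-3149 libraries, both genes were also measured by exon. In the first exon of Kcnk3, which overlaps Gm9899 on the opposite strand, levels were 3.38 to 4.28 CPM in sham, 2.28 to 5.20 under IgG and 9.53 to 17.5 under FG-3149. In its last exon, which does not overlap Gm9899, they were 344 to 350, 214 to 262 and 256 to 327 CPM, so IgG and FG-3149 overlapped slightly there. In the last exon of Kcng2 the means were 89.9 CPM in sham, 88.1 with IgG and 113 with FG-3149, and in the neighbouring upstream exon 2.77, 3.86 and 19.4. The last exon held most counts of both genes, with IgG means of 239.9 of 243.9 CPM for Kcnk3 and 88.1 of 92.65 for Kcng2. A fit on counts of the 3'-most exon of each gene thus reused most of the same reads and is no separate measurement. It called both genes, Kcnk3 at 0.38 ± 0.06 (adjusted p = 0.00139) and Kcng2 at 0.42 ± 0.06 (adjusted p = 0.00112, edgeR) for FG-3149 against IgG. With the trend over GC content removed the values were 0.32 (adjusted p = 0.03) and 0.43 (adjusted p = 0.00246), and with all libraries thinned to the smallest total 0.36 (adjusted p = 0.00506) and 0.53 (adjusted p = 0.00054).

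**Figure D5:**
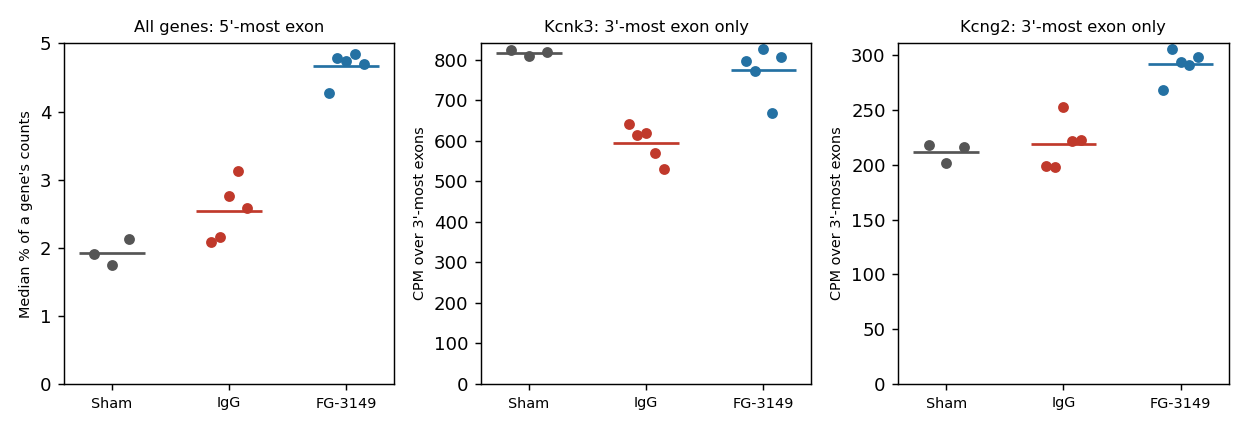
Left, median percent of a gene's counts in its 5'-most exon over 5450 genes, for each library. Middle and right, CPM of Kcnk3 and Kcng2 when only the 3'-most exon of every gene is counted, with the group mean as a bar. The left panel separates FG-3149 (4.27% to 4.85%) from IgG (2.09% to 3.13%). With CPM scaled to the 3'-most exons alone, both genes lie higher in every FG-3149 library than in every IgG library. Scaled to whole-gene counts, the last exon of Kcnk3 overlaps, with up to 262 CPM under IgG and from 256 under FG-3149.

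Arntl and Dbp, genes of the circadian clock, separated sham from every infarcted heart and varied widely within both infarcted groups. Arntl averaged 33.7 CPM in sham, 8.29 with IgG and 10.6 with FG-3149. It ran from 31.7 to 37.4 CPM in sham, from 2.46 to 15.8 with IgG and from 2.77 to 18.5 with FG-3149. Dbp ran from 11.7 to 17.1 CPM in sham, from 58.7 to 149 with IgG and from 71.8 to 173 with FG-3149. Every comparison of channel genes with sham thus carries this clock gene difference, and its part in the channel values was not tested.

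Kcna7, a Kv1 pore, was the third channel gene whose libraries did not overlap between the antibodies, where 1.9% of all genes were higher and 1.24% lower without overlap. It ran from 16.4 to 17.4 CPM with FG-3149, 11.2 to 15.9 with IgG and 13.0 to 15.3 in sham, and it did not pass (0.31 ± 0.09, adjusted p = 0.116), but did without IgG replicates 4 and 5 together (0.45 ± 0.09, adjusted p = 0.0388). For 5 genes that changed after MI, the interval of the difference between antibodies included 0: it was -0.06 to 0.15 for Abcc9, -0.16 to 0.21 for Kcnj5, -0.19 to 0.27 for Kcnd3, -0.17 to 0.46 for Kcnj2 and -0.27 to 0.84 for Kcnv2 (95% intervals, log2), and differences within those limits could not be resolved. The interval excluded 0 for Kcnj3 (0.00013 to 0.40, adjusted p = 0.363) and Kcna6 (-2.57 to -0.02), neither of which passed after adjustment.

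Further tested channel genes were not called in any of the 3 comparisons with all libraries. Kcnk6, a K2P channel, ran from 5.58 to 8.72 CPM over the 13 libraries and Kcnt2, a sodium-activated pore, from 2.98 to 5.85. The Kv3 pores Kcnc1 and Kcnc2 and the KChIP subunits Kcnip1 and Kcnip3 did not pass against sham, where Kcnc1 with FG-3149 gave 0.76 ± 0.30 (adjusted p = 0.0603). Kcnab1, Kcnk13 and Kcnq5 were at low level, at most 2.25 CPM in any library. The untested gene with the most reads was Kcnrg (mean count 6.96), and the tested gene with the fewest was Kcna6 (6.54). The filter asks for at least 0.782 CPM in 3 libraries, as many as the smallest group holds, and Kcna6 met it with 2 sham libraries and 1 IgG library, so that it could not have been tested without sham.

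Proteins that bind or regulate potassium channels were measured as a separate list. Of 14 tested partners, 1 rose and 2 fell with IgG against sham: Lrrc10, which encodes a protein found in heart muscle, rose from a mean of 109 to 203 CPM (0.89 ± 0.13), Amigo1, which encodes a membrane protein, fell (-0.41 ± 0.07) and Ank2, an anchoring protein, fell (-0.23 ± 0.06). With FG-3149 against sham, 4 rose and 2 fell: Amigo1 (-0.23 ± 0.07) and Dlg1 (-0.17 ± 0.05), which encodes a scaffold protein, fell, and the risers were Lrrc10 (0.86 ± 0.13), Irx3 (1.06 ± 0.26), Irx4 (0.29 ± 0.09) and Irx5 (0.94 ± 0.22). The Irx genes encode transcription factors that pattern repolarisation in the ventricle, with Irx5 known as a repressor of Kcnd2. Among 8 genes of the sodium-potassium pump, which brings potassium back into the cell, the beta subunit gene Atp1b2 fell and the regulator Fxyd5 rose in both comparisons with sham. Between FG-3149 and IgG, edgeR called 0 of these 22 genes, 7 had an unadjusted p under 0.05, and DESeq2 called 1, Irx5 (log2 fold change 0.70, adjusted p = 0.0136).

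Markers of other cell types moved with the same groups. Of 6 fibroblast markers, 5 rose with IgG and 5 with FG-3149 against sham, and their sum was 884 to 936 CPM in sham, 1349 to 1812 under IgG and 1177 to 1376 under FG-3149. Of 5 tested macrophage markers, 4 rose with IgG and 5 with FG-3149, with sums of 163 to 170, 212 to 341 and 230 to 363 CPM. Of 8 cardiomyocyte markers 4 fell with IgG, among them Myh6 (-0.42) and Ryr2 (-0.37), and with FG-3149 4 fell and 1, Actn2, rose (0.19). The part of these cell types in the channel values was not tested.

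Where a channel gene had several listed transcripts, the share of each in the gene's RPKM was compared between groups. None of 19 shares in 8 genes passed after adjustment in any of the 3 comparisons (2-sided exact permutation tests). At an unadjusted p under 0.05 there were 0, 2 and 2 for IgG against sham, FG-3149 against IgG and FG-3149 against sham. Against sham the smallest p that 56 groupings allow is 0.0179, so with 19 shares the comparisons with sham could scarcely pass. The share of an Abcc9 transcript was 1.99% to 3.91% with FG-3149 and 3.94% to 5.98% with IgG, without overlap. This full separation gave the smallest p possible there, 0.00794 by the same test, and an adjusted p of 0.151. A lone share thus could not pass between the antibodies either, and the absence of calls cannot decide whether shares differ.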

How the data were processed

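RNA sequencing of left ventricle (single reads of 75 bases, a stranded mRNA kit with 500 ng of total RNA, all 13 libraries on the same flow cell) is described per the labels' protocols. The authors deposited unnormalized estimated counts for genes and exons, and RPKM values per transcript, which are scaled to transcript length and library size. The build was mm10 per the submitters' processing notes. The aligner, the counting tool and the strand setting are not given in the sources used here.

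Gene-level counts were rounded to whole numbers, and 379 entries were dropped because their symbol occurred again with more counts. Genes were kept by filterByExpr, scaled with TMM factors and fitted together over all 13 libraries by edgeR 4.0.16 (glmQLFit, robust, and glmQLFTest, in R 4.3.3). Benjamini-Hochberg adjustment ran over all 13434 genes tested, and a gene was called at an adjusted p under 0.05. The SE was derived as the size of the log2 fold change over the root of its F statistic. CPM are counts scaled to library size with those factors. RPKM were summed over a gene's transcripts to compare genes. The 3'-most and 5'-most exons were taken from the deposited exon entries, for genes with a mean count of at least 50 and at least 5 in the first exon where shares are given. Alternatives used DESeq2 1.42.0, limma 3.58.1 on log2(RPKM + 1) and log2(RPKM + 0.1), and other filters and libraries. Thinning, the 3'-most exon alone, removal of the trend over GC content, and leaving out both IgG libraries with atrial markers were added after seeing the data. The procedure was tested on simulated data.

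Groups and replicate numbers come from the sample titles, and the series' design text speaks of animals. Full statistics were allowed for channel genes called in at least 1 comparison and for a list of known heart channels. The channel genes and all gene lists were chosen with earlier results of these data known. Some channel, pump and marker genes were tested and counted with the others but are not reported here by name.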

Additional observations from a re-analysis of the deposited data

Results flagged for a closer look

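Among 72 sets of 5 libraries (36 channel genes in each infarcted group), 6 held a library farther from the rest than Dixon's 95% limit allows, and chance flags about 1 set in 20. With IgG, replicate 1 was the highest for Kcnd3 (27.1 CPM, the others 18.9 to 21.1) and for Kcnv2 (10.6 CPM, the others 4.34 to 5.46). With FG-3149, replicate 4 was the highest for Kcnj8 (56.7 CPM, the others 43.5 to 46.5) and Kcnn1 (20.1 CPM, the others 17.9 to 18.2). In the same group replicate 5 was the highest for Kcnmb1 (3.74 CPM, the others 1.73 to 2.14) and replicate 1 for Kcnq1ot1 (270 CPM, the others 195 to 206). The causes were not tested.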

How the results depend on the processing

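Of the 36 channel genes with full statistics, 11 of 19 called for IgG against sham, 1 of 2 for FG-3149 against IgG (Kcng2) and 7 of 20 for FG-3149 against sham kept their call in all 24 alternatives, and no direction of a call reversed. Kcnma1 with IgG and Kcna6 with FG-3149 also kept theirs, in the 23 and 19 alternatives that gave them a value. Each gene met the filter through the groups where it was higher, Kcnma1 with 0 sham libraries and Kcna6 with 0 FG-3149 libraries, so these kept calls are not read as support. The count of genes lower with IgG than in sham was 7 without sham replicate 3, and 7 to 12 when each library was left out in turn, against 12 with all. The count higher was 5 to 8. The count higher with FG-3149 than in sham, 8 with all libraries, was 4 on log2(RPKM + 1), 5 on log2(RPKM + 0.1), 3 without sham replicate 1, 2 without sham replicate 2, 4 without sham replicate 3, and 2 to 8 when each library was left out in turn. The count lower, 12, was 7 on the 3'-most exon alone, where 42 channel genes could be tested. FG-3149 against IgG gave 2 higher and 0 lower in every alternative, but without IgG replicates 4 and 5 together the pair was Kcng2 and Kcna7, with Kcnk3 at an adjusted p of 0.0513. With 3 sham libraries, each of them carries much of the comparisons with sham.

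The correlation of same-numbered libraries' deviations ran from -0.04 to 0.18. The highest values, 0.18 and 0.13, were those of IgG with FG-3149 for replicates 1 and 2. Differently numbered libraries give no baseline here, so these values cannot decide whether the replicate numbers pair the libraries. With the replicate block, the counts of higher and lower genes were 7 and 12, 2 and 0, and 7 and 13 in the 3 comparisons.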
